A study of Mus musculus with 2 samples.

Results

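The genes described here are 42 mouse genes of nucleotide synthesis and salvage, a list of enzymes and carriers grouped by their biochemical role. They were found in the count table by Entrez gene identifier and symbol, and all 42 were among its 27179 genes. By role, 12 make purines from the start, 5 make pyrimidines from the start, 5 make deoxynucleotides, 6 supply folate and one-carbon units, 3 are phosphate kinases common to both routes, 6 work in salvage and uptake, and 5 break nucleotides down. The first 4 roles together form the 28 synthesis members.

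RNA-seq was carried out on ALL65, a single primary T-cell acute lymphoblastic leukaemia (T-ALL) that arose with the Vav-tTA and TRE-GFP-shIkaros transgenes and was grown in recipient mice. In this system the Vav promoter, active in blood cells, drives the tetracycline transactivator tTA, which in turn drives a GFP-linked hairpin against Ikaros, the lymphoid transcription factor encoded by Ikzf1. One library came from GFPhigh T-ALL cells sorted from the spleen of untreated recipients, and the other from GFPmid cells of recipients given doxycycline (Dox) for 3 days, which shuts the hairpin off. Both groups carried both transgenes, so the groups differed in Dox, in Ikaros level and in the GFP gate, and these cannot be told apart; there was no Dox-treated leukaemia without the hairpin. The sources used here do not give the strain or age of the mice, nor how many recipient cells passed the gate.

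The design text names 3 mice in each group and 2 sequencing runs of each RNA, and the table holds 1 library per group. The sources used here do not say how the mice and runs were merged, so every difference below lacks a replicate check and carries no p-value. The untreated library held 7477988 counts in total and the one with Dox 14457475. Intervals in parentheses are exact 95% intervals that cover counting error only. Levels are CPM, counts scaled to the library size, after trimmed-mean (TMM) scaling, ratios are log2 of Dox over untreated, and a level compared between genes is given per kilobase of gene length. Ikzf1 stood at 262 CPM untreated and at 1455 CPM with Dox, a log2 ratio of 2.47 (2.41 to 2.54), which is the direction the labels give.

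Nucleotides, the units of RNA and DNA, are made by 2 kinds of route. In de novo synthesis, purine and pyrimidine rings are built from ribose phosphate, amino acids, carbon dioxide and one-carbon units carried by folate. In salvage, free bases and nucleosides are taken up and phosphorylated. Dividing lymphoid cells depend on both, and several of these enzymes are targets of drugs used in T-ALL, such as antifolates, thiopurines and nucleoside analogues. The transcription factor Myc is known to act at many of the synthesis genes.

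Of the 42 members, 41 had a count, and 40 were measured, which means a mean over both libraries of 1 CPM or more; all 40 also reached 5 CPM. Most were slightly lower with Dox: 32 of the 40 had a ratio below 0 and 8 a ratio above it. Among all 11498 genes with at least 1 CPM, 48.8% had a ratio below 0 and 51.2% above it. Of the genes with at least 50 CPM, 44.4% had a ratio below 0. The median ratio of the 40 members was -0.25, with a range from -0.81 to 0.49, beside 0.01 for the 11498 genes. The whole counting interval lay below 0 for 27 members, against 22.3% of all genes, and above 0 for 5 members, against 24.8%. These 2 shares are over genes with at least 1 CPM and depend on level, since intervals narrow as counts rise. The median half-width of the interval was 0.21 for those genes and 0.12 for genes with at least 50 CPM, for which the shares were not computed. In bulk RNA, fewer cells of a type and less RNA per cell cannot be told apart.

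The differences were small in size. With a level of at least 5 CPM required where a gene was higher, 2 of the 40 members were at least 1.5-fold lower with Dox, Slc19a1 and Tk1, against 6.18% of 10113 genes, or 3.3% of the 5212 that reached 50 CPM. None was 1.5-fold higher, against 6.28% and 5.14% of genes. No member was 2-fold lower, against 2.24% and 0.902% of genes at these minimums, or 2-fold higher, against 2.21% and 1.52%. The members' counts past 1.5-fold are near or under the shares of all genes, and most members differed by less, on the same side of 0. The members nearest to 1.5-fold without reaching it were Paics at -0.55 and Aprt at -0.54. Summed over members, the level was 8125 CPM untreated and 7024 CPM with Dox, a ratio of -0.21 (-0.22 to -0.20).

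**Figure D1:**
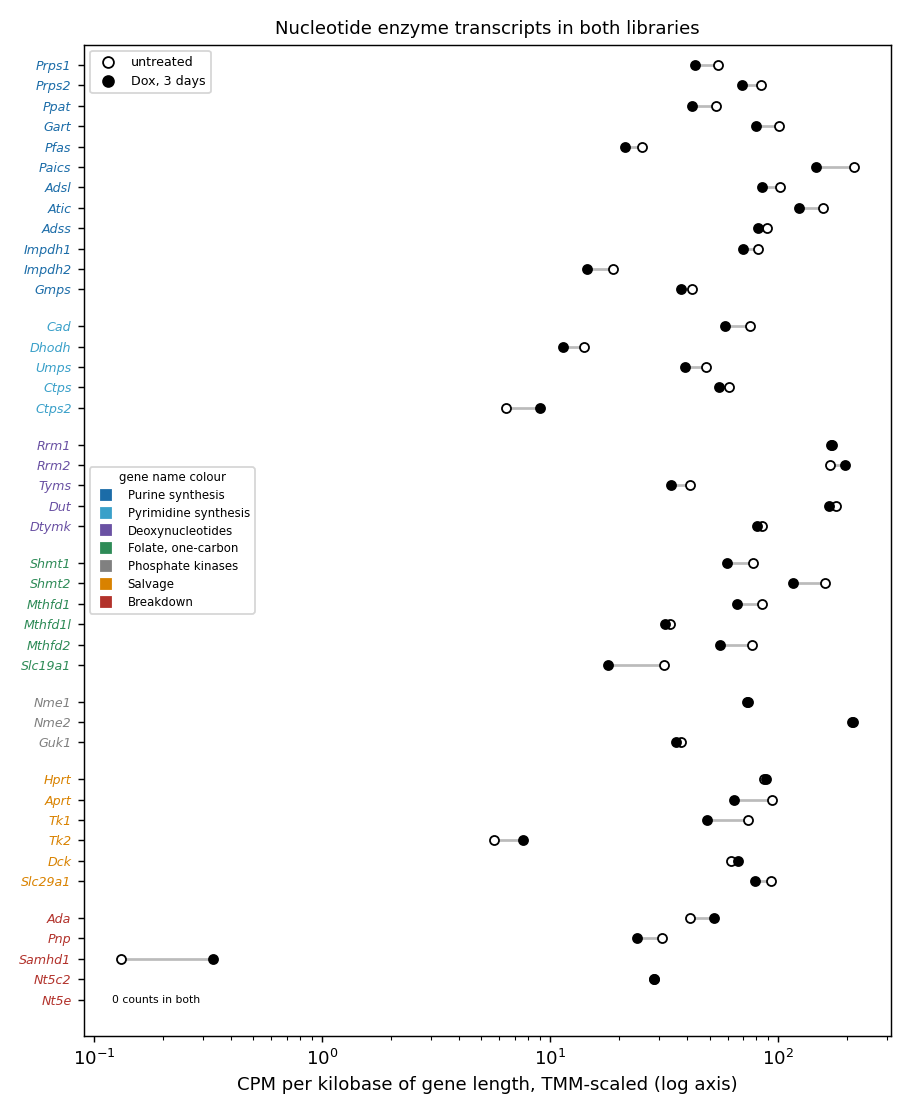
Level of each of the 42 members in the untreated library (open circles) and the Dox library (filled circles), in CPM per kilobase of gene length on a log axis, grouped by role. The filled circle lies to the left of the open one for the 12 purine members and the 6 folate members. Samhd1 lies far below the others, and Nt5e had 0 counts in both libraries.

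Purine synthesis was lower with Dox at every step of the chain. Each of the 12 members was below 0, with a median of -0.30 and a range from -0.55 to -0.12, and their sum was 2902 CPM untreated and 2332 CPM with Dox, a ratio of -0.32 (-0.34 to -0.29). Paics, which carries out the carboxylase and SAICAR synthase steps, had the largest difference. It stood at 510 CPM untreated and 349 CPM with Dox (3879 and 4969 counts), or 1.46-fold lower, -0.55 (-0.61 to -0.49). Per kilobase it was among the most abundant members as listed, at 215 in the untreated library, beside 213 for Nme2, and at 147 in the Dox library, where Nme2 was at 211.

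Ppat, the amidotransferase of the committed step, lies head to head with Paics on chromosome 5 in GRCm38: Ppat spans 76913249 to 76951578 and Paics 76951302 to 76967509. Their annotated exons overlap by 272 bases on opposite strands, and reads there cannot be assigned without strand information. Ppat was at 215 CPM untreated and 168 CPM with Dox, -0.35 (-0.44 to -0.26). Both genes of this divergent pair were thus lower, Paics by more. Atic, which closes the purine ring to IMP, was at 410 and 323 CPM, -0.34 (-0.41 to -0.28). Gart, a 3-activity enzyme of the early chain, was at 334 and 265 CPM, -0.33 (-0.41 to -0.26), and 1014 bases of its exons lie opposite the antisense gene Gm15964. The remaining ring-building members were Pfas at -0.24 (-0.35 to -0.14) and Adsl at -0.26 (-0.35 to -0.17).

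The synthetases that make the ribose donor PRPP, Prps1 and Prps2, were at 107 and 304 CPM untreated and at 85.1 and 252 CPM with Dox. Their ratios were -0.33 (-0.46 to -0.20) and -0.27 (-0.35 to -0.20). Part of the Prps1 sequence also occurs in its copy Prps1l3 (9.93% of the 50-base words of Prps1), which held 1504 and 2694 counts against 814 and 1211 for Prps1. With the counts of both added, the ratio was -0.15 (-0.23 to -0.08). The size of the Prps1 difference is therefore uncertain, while its direction was the same with the copy added.

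After IMP the chain splits into an adenine and a guanine branch. On the adenine side, Adss (adenylosuccinate synthase) was at 227 CPM untreated and 209 CPM with Dox, -0.12 (-0.20 to -0.03), the smallest difference among purine members. On the guanine side, Gmps (GMP synthase) was at 191 and 172 CPM, -0.15 (-0.24 to -0.05). IMP dehydrogenase, the enzyme that commits IMP to guanine nucleotides, has 2 genes. Impdh1 was at 196 and 169 CPM, -0.22 (-0.31 to -0.12). Impdh2 was listed at only 30.7 and 23.7 CPM, -0.37 (-0.62 to -0.12), but 39.3% of its 50-base words also occur in the pseudogene Impdh2-ps, which held 3063 and 4643 counts against 233 and 337 for Impdh2. Reads of these 2 genes cannot be fully separated, so the low level of Impdh2 and its share beside Impdh1 are not interpretable. Summed, Impdh2 and Impdh2-ps were at 433.7 and 350.1 CPM, -0.31 (-0.37 to -0.25).

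Promoters of several synthesis genes are known to hold E-boxes, the CACGTG motif bound by Myc and related factors. RefSeq windows (GRCm38.p6, from 250 bases before to 50 after a start) were matched for 40 of the 42 members, with none for Pfas and Dhodh. CACGTG, which reads the same on both strands, was in a window of 8 of the 40 members (20%), against 8.09% of the 27025 genes with a window. Shown are the 3 purine members that hold it, at chr5:76951087-76951116 (plus strand), chr1:71557137-71557166 (plus) and chr9:108560314-108560343 (plus), and 3 members of other roles, at chr5:30073669-30073698 (minus), chr1:93802065-93802094 (minus) and chr11:93968273-93968302 (minus). Capitals mark the E-box, and each run reads 5′ to 3′ along the gene.
Paics: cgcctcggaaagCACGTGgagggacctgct
Atic: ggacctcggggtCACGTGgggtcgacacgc
Impdh2: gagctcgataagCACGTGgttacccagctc
Tyms: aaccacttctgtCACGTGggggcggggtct
Dtymk: gtctcgaacttcCACGTGaccagagcctgc
Nme1: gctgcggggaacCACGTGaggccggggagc
The E-box begins 203 bases before a RefSeq start of Paics, 7 before that of Atic, 110 before that of Impdh2 and 61 before that of Tyms. The Paics site also lies within the span of Ppat, whose own window held no E-box. The other members with an E-box were Slc29a1 and Nt5c2, each in 1 of several windows.

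Members with and without an E-box had nearly the same median ratio, -0.25 (8 members) and -0.24 (30 members). E2F-like motifs, searched on both strands (TTCCCGC first, then TTGGCGC as a variant, with TTCGCGC included and also TTGCCGC), were in windows of 15 of 40 members (37.5%) against 10.9% of genes, and the medians with and without were -0.27 and -0.22. The core TGGGAA, bound by Ikaros, was in windows of 9 members (22.5%) against 28.3% of genes, with medians of -0.23 and -0.26. The 27025 genes with a window were not chosen by level, unlike the measured members. A gene with more windows also has more chances of a match: Slc29a1 has 8 and Nt5c2 7, and both match each motif. Of all 32851 windows, 7.15% held an E-box, 9.57% an E2F-like motif and 25.6% TGGGAA. The member shares are therefore description only. A match is a string of letters in this window, and no test of binding was made.

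Pyrimidine synthesis followed with 4 of 5 members below 0. Cad, the 3-activity enzyme that opens the pathway, stood at 537 CPM untreated and 417 CPM with Dox (4079 and 5931 counts), -0.36 (-0.42 to -0.31). Umps, which makes UMP, was at 155 and 125 CPM, -0.31 (-0.42 to -0.21). Dhodh, the mitochondrial enzyme between them, was at 32.5 and 26.4 CPM, -0.30 (-0.54 to -0.06). So the 3 enzymes from carbamoyl phosphate to UMP were lower by similar amounts. CTP synthase, which turns UTP into CTP, has 2 genes that went opposite ways. Ctps was at 164 and 149 CPM, -0.14 (-0.24 to -0.04), and Ctps2 at 37.5 and 52.7 CPM, or 1.40-fold higher, 0.49 (0.29 to 0.69), the highest ratio of the 40 members.

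**Figure D2:**
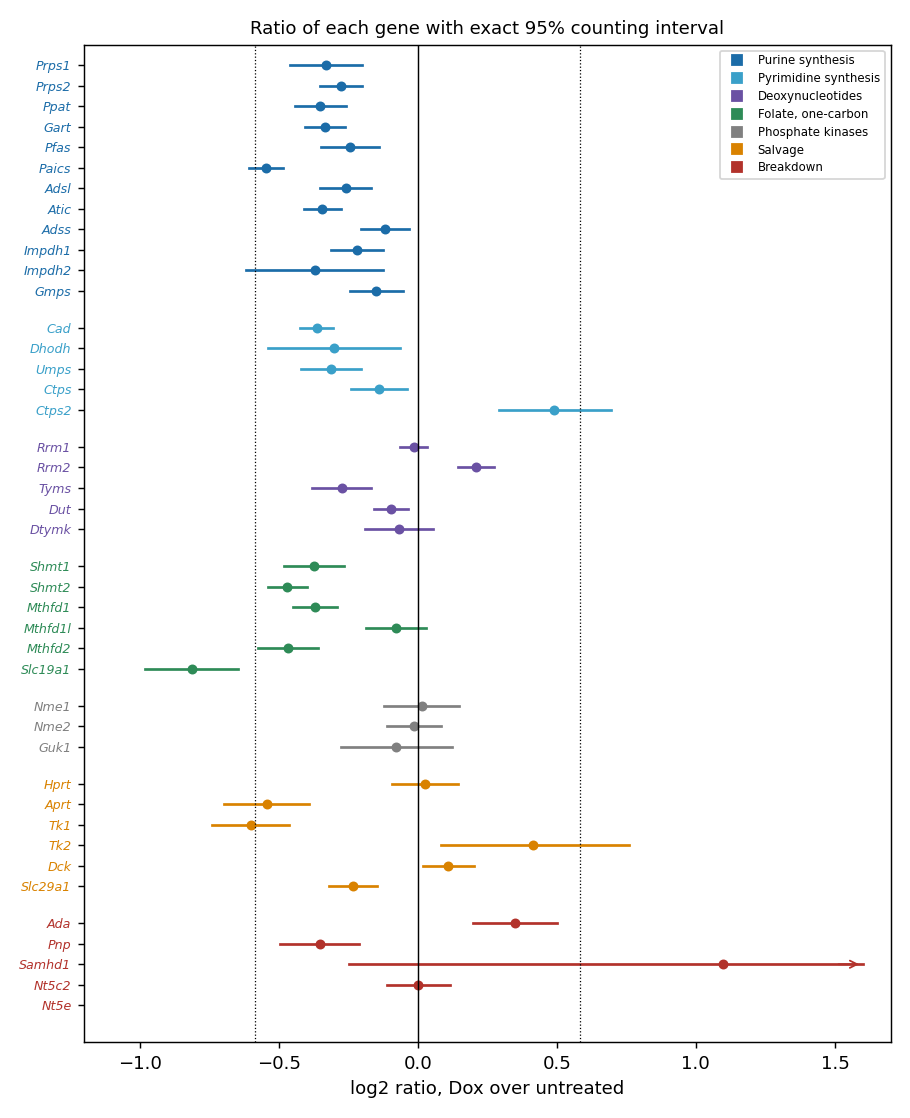
Log2 ratio of Dox over untreated for each member with its exact 95% counting interval, grouped by role. The line at 0 is no difference and the dotted lines are 1.5-fold. Slc19a1 and Tk1 lie past the lower dotted line, and Ctps2 is the highest of the 40 measured members. The interval of Samhd1, which is under 1 CPM, runs past the axis, and Nt5e has no point.

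Folate and one-carbon supply had the lowest median of the 7 roles, -0.42, with all 6 members below 0 and a sum of 1191 CPM untreated against 904 CPM with Dox, -0.40 (-0.44 to -0.36). Slc19a1, the reduced folate carrier that brings folates and methotrexate into cells, had the largest difference of the 40 measured members. It stood at 75.7 CPM untreated and 43.0 CPM with Dox (575 and 612 counts), or 1.76-fold lower, -0.81 (-0.98 to -0.65), and its interval alone among members lay wholly past 1.5-fold. Shmt2 and Mthfd2, the mitochondrial serine hydroxymethyltransferase and methylene-tetrahydrofolate dehydrogenase, came next at equal ratios. Shmt2 was at 369 and 266 CPM, -0.47 (-0.54 to -0.40), and Mthfd2 at 158 and 115 CPM, -0.47 (-0.58 to -0.36).

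The cytosolic enzymes of the same cycle were lower by slightly less. Shmt1 was at 160 CPM untreated and 123 CPM with Dox, -0.37 (-0.48 to -0.27), with 184 bases of its exons opposite Smcr8. Mthfd1, the 3-activity cytosolic enzyme, was at 283 and 219 CPM, -0.37 (-0.45 to -0.29). Mthfd1l, which releases formate from mitochondria, was the exception, at 146 and 138 CPM, -0.08 (-0.19 to 0.03), an interval that spans 0. Among these 5 enzymes the mitochondrial ones thus had both the lowest ratios and the highest.

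Deoxynucleotide members were mixed and their sum was nearly level, 1777 CPM untreated and 1766 CPM with Dox, -0.01 (-0.04 to 0.02). Ribonucleotide reductase makes deoxynucleotides from ribonucleotides. Its large subunit Rrm1 was at 692 and 685 CPM, -0.01 (-0.06 to 0.03), and its S-phase small subunit Rrm2 at 368 and 426 CPM, 0.21 (0.15 to 0.28), higher with Dox. Tyms, thymidylate synthase, which makes dTMP with a folate cofactor, was at 157 and 130 CPM, -0.27 (-0.38 to -0.17); with its copy Tyms-ps added the ratio was -0.25 (-0.35 to -0.16). Dut, the dUTPase that supplies dUMP, was at 449 and 420 CPM, -0.10 (-0.16 to -0.04), and Dtymk, which phosphorylates dTMP, at 111 and 106 CPM, -0.07 (-0.19 to 0.05). The folate-dependent thymidylate step was therefore the lowest of this role.

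The kinases that serve both routes did not differ beyond counting error. Nme1 was at 90.3 CPM untreated and 91.1 CPM with Dox, 0.01 (-0.12 to 0.15). Nme2 was at 175 and 174 CPM, -0.01 (-0.11 to 0.08), and Guk1, guanylate kinase, at 42.8 and 40.5 CPM, -0.08 (-0.28 to 0.12). Nme1 and Nme2 make most nucleoside triphosphates, and 47.0% of the 50-base words of Nme2 also occur in other annotated genes, among them a read-through of the pair.

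Salvage members went both ways, 3 below and 3 above 0, with a median of -0.10. Tk1, the cytosolic thymidine kinase of dividing cells, stood at 101 CPM untreated and 66.9 CPM with Dox (771 and 951 counts), or 1.52-fold lower, -0.60 (-0.74 to -0.46). Its interval spans 1.5-fold, and 83 bases of its exons lie opposite Afmid, which held 79 and 173 counts. Aprt, which salvages adenine, was at 81.2 and 55.7 CPM, -0.54 (-0.70 to -0.39). Slc29a1, the nucleoside carrier ENT1, was at 230 and 196 CPM, -0.23 (-0.32 to -0.15). These 3 were lower with Dox.

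The other 3 salvage members were level or higher. Hprt, which salvages hypoxanthine and guanine and activates thiopurines, was at 117 CPM untreated and 119 CPM with Dox, 0.03 (-0.09 to 0.15). Dck, deoxycytidine kinase, which activates cytarabine and nelarabine, was at 189 and 205 CPM, 0.11 (0.02 to 0.20). Tk2, the mitochondrial thymidine kinase, was at 13.7 and 18.3 CPM (104 and 260 counts), 0.41 (0.08 to 0.76). The adenine and hypoxanthine phosphoribosyltransferases, Aprt and Hprt, thus had intervals that do not overlap.

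Breakdown members were few and level as a sum, 285.9 CPM untreated and 285.4 CPM with Dox, -0.00 (-0.08 to 0.07), but the 2 purine nucleoside enzymes whose loss causes T-cell immunodeficiency went opposite ways. Ada, adenosine deaminase, was at 66.7 and 85.0 CPM (507 and 1209 counts), or 1.27-fold higher, 0.35 (0.20 to 0.50). Pnp, purine nucleoside phosphorylase, was at 90.8 and 71.1 CPM, -0.35 (-0.49 to -0.21); with the copy Pnp2 added it was at -0.30 (-0.43 to -0.16). Nt5c2, the cytosolic purine nucleotidase, was at 128 CPM in both libraries, 0.00 (-0.11 to 0.12). Samhd1, the dNTP hydrolase, was under the limit for measurement, with 4 and 19 counts and a ratio of 1.10 (-0.25 to 3.36). Nt5e, which encodes CD73, had 0 counts in both, which allows up to 0.395 CPM untreated and 0.211 CPM with Dox by counting error alone; whether the authors' annotation or counting could give a 0 was not settled.

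Synthesis against salvage and breakdown is the comparison the list was made for. Of the 28 synthesis members, 26 were below 0, all but Ctps2 and Rrm2, with a median of -0.29. Their sum was 6797 CPM untreated and 5773 CPM with Dox, -0.24 (-0.25 to -0.22). Of the 9 measured salvage and breakdown members, 4 were below and 5 above 0, with a median of 0.00 and a sum of 1019 and 946 CPM, -0.11 (-0.15 to -0.07). The intervals of the summed ratios do not overlap, but these intervals cover counting error only and the 9 genes are few; with 1 library per group the difference between the classes was not tested over animals. Within synthesis the ring-building and folate steps, at medians from -0.42 to -0.30, stood below the deoxynucleotide step at -0.07.

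**Figure D3:**
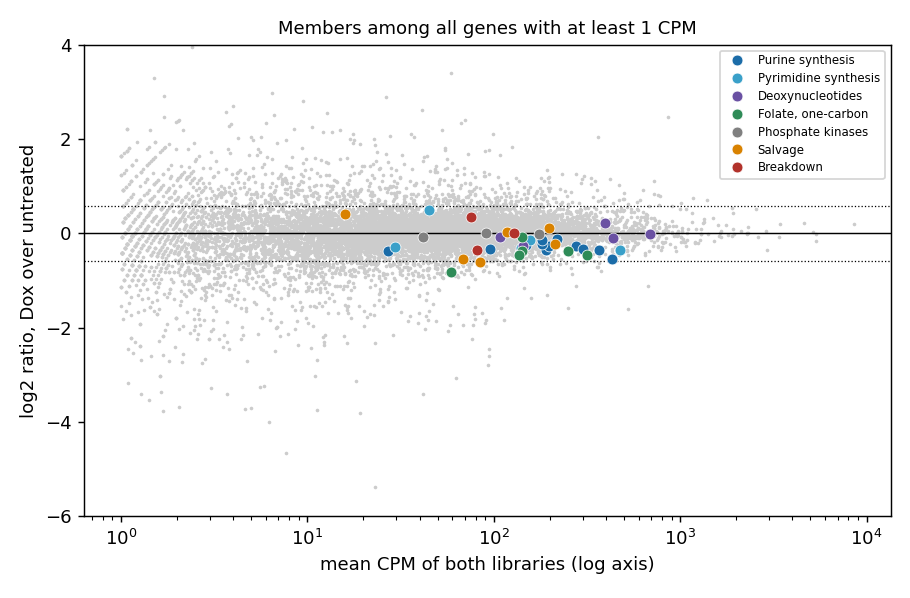
Log2 ratio of Dox over untreated against the mean level of both libraries (log axis) for all genes with at least 1 CPM (grey), with the 40 measured members in the colour of their role. The dotted lines are 1.5-fold. The members lie close together, mostly just below 0, while many grey genes reach ratios far larger in both directions.

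In several isoenzyme pairs the balance between the genes differed between the libraries. Of the counts of the CTP synthase pair, Ctps held 81.4% (79.4 to 83.3) untreated and 73.9% (72.2 to 75.5) with Dox. This share and those below are of counts, not per kilobase, so the lengths of both genes also bear on them. Per kilobase Ctps held 90.4% untreated and 85.9% with Dox. Of the thymidine kinase pair, Tk1 held 88.1% (85.8 to 90.2) untreated and 78.5% (76.1 to 80.8) with Dox, so the mitochondrial form took a larger share. Mthfd1 held 65.9% of its pair with Mthfd1l untreated and 61.3% with Dox. Rrm2 went the other way: beside Rrm2b, the p53-induced small subunit, it held 93.4% untreated and 95.2% with Dox. For 3 further pairs the intervals overlap. Pnp held 94.0% (92.0 to 95.6) and 90.4% (88.6 to 92.1) beside Pnp2, whose 44 and 107 counts share sequence with it. Shmt1 held 30.2% and 31.7% beside Shmt2, and Nme1 34.0% and 34.4% beside Nme2. No share is given for the pairs of Prps1 and Impdh2, since copies that share part of their sequence hold more counts than the genes do. Mthfd2l, the relative of Mthfd2, had 0 counts in both libraries.

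**Figure D4:**
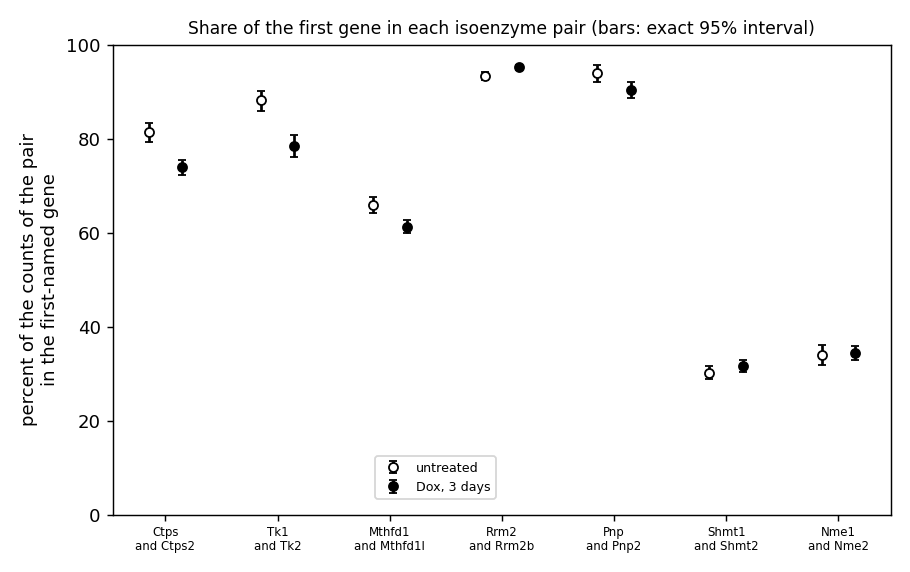
Percent of the counts of each isoenzyme pair that belong to the first-named gene, untreated (open) and with Dox (filled), with exact 95% binomial intervals. The intervals are apart for the pairs of Ctps, Tk1, Mthfd1 and Rrm2 and overlap for those of Pnp, Shmt1 and Nme1.

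Other genes of these pathways, from 4 lists set by function, were divided more evenly around 0 than the members, beside 48.8% of all genes below 0. Of 14 measured salvage and nucleotide kinases outside the members, 8 were below and 6 above 0, with a median of -0.09. Cmpk2, a mitochondrial UMP-CMP kinase, was the one past 1.5-fold, at 7.76 CPM untreated and 15.9 CPM with Dox, 1.02 (0.61 to 1.47). Nme6 was at -0.55 (-0.94 to -0.18), and Adk, adenosine kinase, at -0.39 (-0.53 to -0.26). The breakdown list held 18 measured genes, 9 below and 9 above 0, with a median of -0.04. The summed levels of these lists were slightly lower, at -0.15 (-0.19 to -0.10) for the kinases and -0.11 (-0.16 to -0.07) for breakdown.

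The largest differences in the pathway were in purine interconversion, outside the 42 members. Gmpr, which turns GMP back into IMP, was at 25.3 CPM untreated and 7.73 CPM with Dox (192 and 110 counts), -1.68 (-2.06 to -1.36). Its relative Gmpr2, for the same reaction, was at 61.7 and 57.2 CPM, -0.11 (-0.27 to 0.06), an interval that spans 0. Per kilobase Gmpr2 was the higher in both libraries, at 40.0 and 37.1 beside 16.3 and 4.98 for Gmpr. Ampd1, an AMP deaminase best known from muscle, was at 2.89 and 14.0 CPM (22 and 199 counts), 2.20 (1.63 to 2.98), while Ampd2, its widely expressed relative, was at 146 and 97.5 CPM, -0.58 (-0.70 to -0.47). So Ampd1 and Ampd2, 2 genes for the same reaction, stood on opposite sides of 0, with Ampd2 the higher in both libraries also per kilobase. Ampd3, another AMP deaminase gene, was at 28.2 and 25.9 CPM, -0.12 (-0.37 to 0.13), an interval that spans 0. Dctd, the dCMP deaminase that supplies dUMP, was at 28.7 and 19.2 CPM, -0.58 (-0.84 to -0.32). Cda, Dpyd, Dpys, Upb1, Nt5c1a, Nt5c1b and Entpd1 had 0 counts in both libraries and are named for that alone, with the same limit as for Nt5e.

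Among 16 measured folate and serine genes outside the members, 10 were below and 6 above 0, with a median of -0.06 and a summed ratio of -0.11 (-0.14 to -0.07). Mtrr, which reactivates methionine synthase, was at 34.5 CPM untreated and 53.6 CPM with Dox, 0.63 (0.43 to 0.84). Fpgs, which adds the glutamate tail that keeps folates and methotrexate in cells, was at 63.2 and 46.4 CPM, -0.44 (-0.62 to -0.27), the same direction as the carrier Slc19a1. Mthfs, at 5.26 and 6.68 CPM, had an interval that spans 0. Of 14 measured genes of accessory synthesis and transport, 9 were below and 5 above 0, with a median of -0.09 and a summed ratio of -0.03 (-0.07 to 0.02). Adssl1, the relative of Adss known from muscle, was at 9.87 and 2.95 CPM, -1.68 (-2.32 to -1.18). Slc28a2, a sodium-coupled purine nucleoside carrier, was at 20.1 and 40.0 CPM, 0.98 (0.73 to 1.26), and the carriers Slc29a2 and Slc25a33 were at -0.49 (-1.08 to 0.07), an interval that spans 0, and -0.41 (-0.75 to -0.07).

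Because many members are made in proliferating cells and near S phase, genes of the cell cycle were measured beside them. Of 25 S-phase genes, 19 were below and 6 above 0, with a median of -0.10. Ccne1, cyclin E1, was highest at 0.75 (0.55 to 0.95), and Ung (-0.62), Gins2 (-0.52) and Cdt1 (-0.48) were lowest. All 20 genes of G2 and mitosis were above 0, with a median of 0.25 and a range from 0.07 to 0.44; Top2a was at 1628 CPM untreated and 2206 CPM with Dox, 0.44 (0.41 to 0.47). The synthesis median of -0.29 therefore lay below those of both cell-cycle lists. The part of the cell cycle in the members' ratios was not tested.

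Myc stood at 450 CPM untreated and 273 CPM with Dox (3423 and 3887 counts), or 1.65-fold lower, -0.72 (-0.79 to -0.65). Mxd4, whose protein pairs with Max and opposes Myc, was at 38.0 and 99.7 CPM, 1.39 (1.21 to 1.58), and its relatives Mxd1 and Mxd3 were at 0.52 and 0.46. Of 10 measured genes of the Myc network, 3 were below and 7 above 0, with a median of 0.07. Not all relatives were higher: Mxi1 at 0.02 (-0.13 to 0.18) and Mnt at 0.04 (-0.14 to 0.22) had intervals that span 0. Mga was lower, at -0.24 (-0.32 to -0.15). Myc was thus lower with Dox, as most members were, while Mxd1, Mxd3 and Mxd4 were higher and Mxi1, Mnt and Mga were not clearly so. With 1 library per group no link between genes can be measured, and the part of these genes in the members' ratios was not tested.

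**Figure D5:**
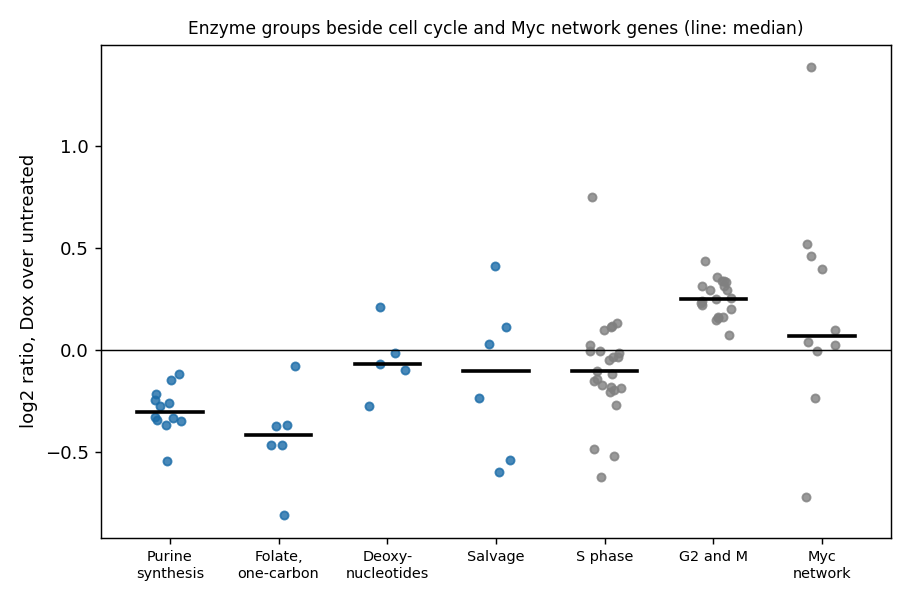
Log2 ratio of Dox over untreated for each gene of 4 member roles (blue) and of 3 comparison lists (grey), with a line at each median. The purine and folate members lie below 0, the S-phase genes spread around a median of -0.10, and the 20 genes of G2 and mitosis all lie above 0. Mxd4 is the highest point and Slc19a1 the lowest.

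Markers of cell types that the sort could hold were measured for the same reason. All 13 T-lineage genes were measured, with a sum of 8497 CPM untreated and 9640 CPM with Dox. Of these, 9 were above and 4 below 0. Cd8b1 (1.27), Cd4 (0.83), Cd8a (0.80) and Cd247 (0.78) were at least 1.5-fold higher, against 6.28% of all genes with at least 5 CPM. Those below 0 were Cd3g (-0.28), Cd3d (-0.25), Lck (-0.21) and Cd3e (-0.09). B-cell genes summed to 3.82 and 4.64 CPM, with Ms4a1, Pax5 and Ebf1 at 0 in both, and myeloid genes to 16.8 and 17.6 CPM, with S100a8, Mpo and Elane at 0 in both. Within the myeloid sum Lyz2 was lower with Dox (7.24 and 1.69 CPM) and Itgam higher (8.42 and 14.7 CPM). The dendritic list, mostly MHC class II genes, was at 136 and 58.1 CPM, with 5 of 10 genes measured. All 5 had intervals wholly below 0, against 22.3% of all genes with at least 1 CPM, with a median of -1.79. These were Cd74 (-2.50), H2-Aa (-2.17), Ciita (-1.79), H2-Eb1 (-1.60) and H2-Ab1 (-0.60). NK genes summed to 1083 and 1778 CPM, nearly all from Gzma, with Ncr1, Klrk1 and Klrd1 at 0 in both. All 5 measured NK genes had intervals wholly above 0, against 24.8% of all genes with at least 1 CPM, with a median of 1.16. They were Gzma (0.72), Prf1 (2.19), Eomes (1.19), Nkg7 (1.16) and Tbx21 (0.31). Counts were low for Prf1 (3 untreated and 35 with Dox) and Nkg7 (9 and 41). Klrb1c, under the limit for measurement, had 3 counts in each library. Stromal and endothelial genes summed to 361 and 330 CPM with Col3a1, Cdh5 and Kdr at 0 in both. Within that sum Pdgfrb was lower with Dox at -1.72 (-2.04 to -1.45) and Col1a2 at -0.56, and Pecam1 was higher at 0.37. The part of other cells in the members' ratios was not tested.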

How the data were processed

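The values used are gene counts as the authors deposited them, made with featureCounts on mm10 reads after CASAVA 1.8.2, per the submitters' processing notes; the sources used here do not give the aligner, strand setting or annotation release. The series table and the per-sample files differed in 0 values. TMM factors came from edgeR 4.0.16 in R 4.3.3. Log2 ratios carry a prior count of 2 and exact Clopper-Pearson intervals. The calculation was tested on simulated data. With 1 library per group no test across genes was possible, and the precision is set by the counts, of which PCR copies are not independent molecules. The members, the lists of other genes and the processing choices were chosen with earlier results of these data known. Values are given in full for members past 1.5-fold, up to 4 members of largest ratio per role and both genes of each isoenzyme pair; for each other list, up to 4 genes of largest ratio with at least 5 CPM, and Myc. Remaining members are named for completeness, and some genes of the other lists are not reported here. Symbols and gene positions are from RefSeq (GRCm38.p6), and exon overlaps and shared 50-base words from GENCODE M21. Alternatives were scaling by DESeq2 1.42.0 or by total counts, and a prior count of 0.5 or 5. Further ones were other CPM minimums, thinned counts and removal of a length trend. Chosen after seeing the data were adding the counts of copies that share sequence and a background of genes with at least 50 CPM.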

Additional observations from a re-analysis of the deposited data

How the results depend on the processing

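The median ratio of the members stayed between -0.30 (total counts) and -0.23 (Dox counts thinned to the untreated total), that of synthesis members between -0.33 and -0.27, and 26 synthesis members were below 0 under each alternative run. Of 216 values for groups and counts, 204 were kept and 12 moved. A count was kept if within 1.5-fold of the main one, and a median if within the median counting bounds of its group. The side of 0 was not part of this rule. The salvage and breakdown median was 0.0012 in the main run, -0.0028 with DESeq2 size factors and -0.045 with total counts. Its members below 0 were 4, 5 and 6 of the 9 in these runs. Members at least 1.5-fold lower were 4 with total counts (Paics and Aprt were added) and 1 with the interval bound past the fold. With a minimum of 1 CPM, and with no minimum, 1 member passed 1.5-fold upward and 1 passed 2-fold upward, Samhd1 in each case. Breakdown members below 0 were 2 with DESeq2 size factors, with total counts, with thinned counts and with the length trend removed, since Nt5c2 sits at 0; without a CPM minimum the breakdown median was 0.17. With copies added, chosen after seeing the data, 1 phosphate kinase was below 0. Of 497 single-gene values, 495 stayed within the counting interval; the others were Top2a at 0.39 with total counts and Prps1 at -0.15 with copies added. No called value changed sign under the alternatives run. No paired analysis was possible because each group has 1 library. For the same reason no replicate could be left out, and spread between mice is unknown. Counts limit Samhd1, Tk2, Dhodh and Impdh2 most.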

Other observations

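Some genes that supply the nitrogen and serine used by these pathways were chosen after their values were seen, and are given as values. Psat1, of serine synthesis, was at 311 CPM untreated and 250 CPM with Dox, -0.32 (-0.39 to -0.24), and Phgdh, the enzyme before it, at 149 and 133 CPM, -0.16 (-0.26 to -0.05). Psph, also of serine synthesis, was at 54.6 and 57.4 CPM, 0.07 (-0.10 to 0.24), an interval that spans 0. Got1 and Got2, which make aspartate, were at -0.03 and -0.06, with intervals that span 0. Glul, glutamine synthetase, was higher with Dox, at 41.2 and 50.5 CPM, 0.29 (0.10 to 0.49). Asns, asparagine synthetase, had 0 counts in both libraries, which allows up to 0.395 CPM untreated and 0.211 CPM with Dox by counting error alone; whether the authors' annotation or counting could give this 0 was not settled.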
